A study of Mus musculus with 10 samples.

Results

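Cells from a germ cell culture at 2 weeks were compared with the freshly selected testis cells from which such cultures were started. The comparison used 4 of the 10 libraries of the series, with 2 libraries at week 0 and 2 at week 2. Genes entered it when their FPKM (the fragment level per length of transcript and depth of library) was 1 or more in at least 2 of these 4 libraries, which 14974 of the 21969 genes in the expression table met. A difference is given throughout as the week 2 mean minus the week 0 mean of log2(FPKM+1), with its standard error (SE). On this scale the change of a gene with low FPKM is understated.

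Spermatogonial stem cells are the germ cells at the base of the seminiferous tubule that renew themselves and give rise to sperm. In the testis they depend on GDNF, which Sertoli cells and other somatic cells secrete and which acts through the receptor pair GFRA1 and RET, and on FGF2. With both factors in the medium they can be expanded outside the animal, and the lines obtained in this way are called germline stem (GS) cells. Their descendants pass through differentiating spermatogonia, which need KIT and retinoic acid, then through meiosis as spermatocytes, and end as haploid spermatids that replace histones with protamines and build the sperm tail.

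All libraries came from mice of the DBA/2 strain. The week 0 group is adult testicular cells taken directly after magnetic selection with an antibody to CD9, a tetraspanin of the spermatogonial surface that other testis cells also carry. The week 2 group is cells grown from such a selection for 2 weeks in an Iscove-based medium with human FGF2, rat GDNF and a low concentration of fetal bovine serum. No genotype, allele or other agent separates the groups, and time in culture and the makeup of the surviving cells cannot be told apart. Cultures at weeks 1 and 3 and the GS cell line make up the other 6 libraries. They are used here for the estimate of spread and as side values. The labels do not say whether the libraries of a group came from separate cultures or mice, and the p-values rest on a spread between libraries that may be technical only. Nor do they say whether the cultures held feeder cells, so a transcript measured at week 2 need not come from spermatogonia.

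The estimated depth of both week 2 libraries was above that of both week 0 libraries. The spacing of the low FPKM values gave an estimated 10340000 and 12630000 reads for the week 0 libraries and 15480000 and 13430000 for those of week 2. Any scaling between libraries in the deposited values, which is unknown, would enter these estimates, so they may differ from the true numbers of reads. At these depths an FPKM of 1 on 2000 nucleotides is between 20.7 and 31.0 reads. Over genes, the log2 values of the 2 replicates correlated with r = 0.992 at week 0 and r = 0.994 at week 2, and the median SD between them was 0.097 and 0.074. The FPKM of a library did not add up to the same total, with sums of 860429 and 848311 at week 0 and 580170 and 579697 at week 2.

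Of the genes tested, 12231 (81.7%) differed between week 2 and week 0 at an adjusted p under 0.05 (limma, Benjamini-Hochberg over all 14974 genes). There were 5203 higher genes (34.7%) and 7028 lower genes (46.9%) at week 2. With a difference of at least 2-fold as a further condition, 8058 genes (53.8%) were called, 2802 (18.7%) of them higher and 5256 (35.1%) lower. Because so many genes differed, a called gene is not unusual here, and each list of genes below has to be read against these shares. The split depended on scaling. The median difference of all genes was -0.25 with the values as deposited, 0.41 after quantile normalization, 0.25 with every library at a common FPKM sum and 0.32 with a common sum of the genes that remained after the abundant testis genes were removed. The share of higher genes among those called was 42.5% as deposited and 60.1%, 55.3% and 57.2% under these 3 rescalings. All 3 shift values upward, so the 5203 higher genes kept their call under each, while 4880 (32.6% of the genes tested) of the 7028 lower genes did, which makes 10083 genes (67.3%) called alike under all 4 scalings. In what follows, rose and fell refer to adjusted p under 0.05 on the deposited scale. For a gene named as fallen it is said where the fall was not called in the same direction under all 4 scalings. The counts of falls in lists and pairs include such falls, and how many held is not given for every list. Of the 12231 genes called, 12230 had both week 2 libraries above or both below the 2 week 0 libraries, and so did 1445 of the 2743 genes that were not called. The groups did not overlap for any gene named below as risen or fallen.

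**Figure D1:**
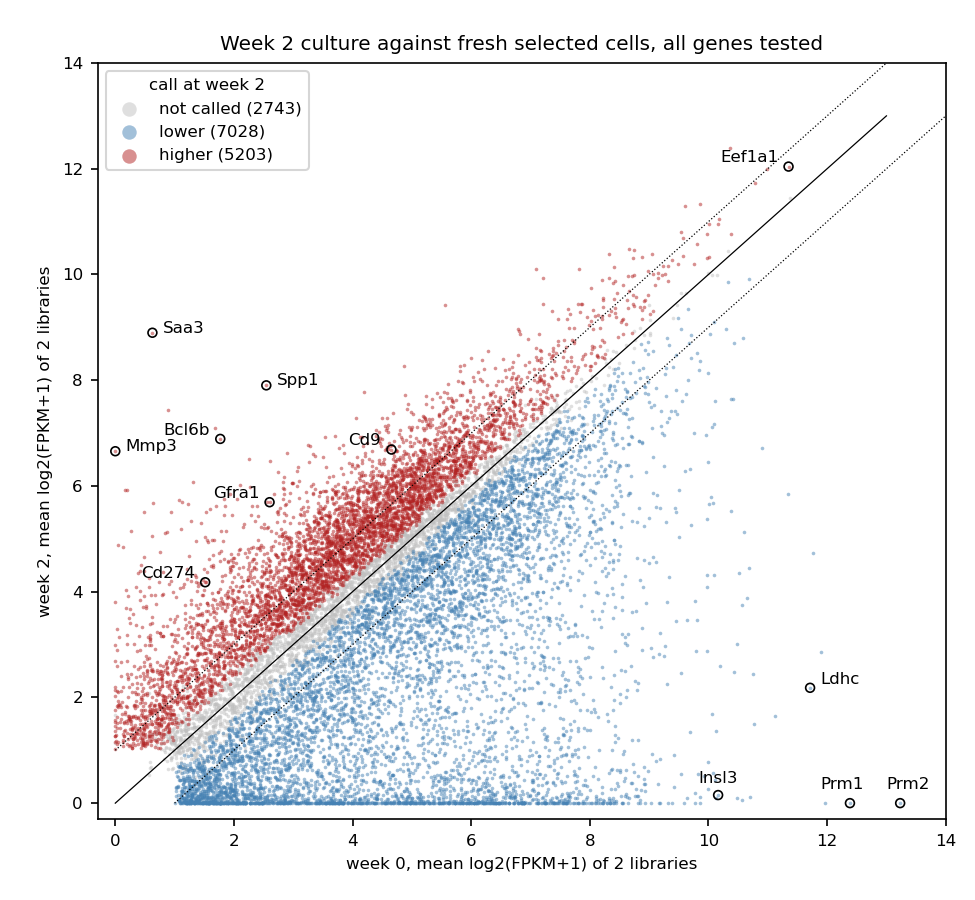
Mean log2(FPKM+1) of the 2 libraries of week 0 (horizontal axis) and of week 2 (vertical axis) for the 14974 genes tested, coloured by call, with the solid line at equal values and dotted lines at a 2-fold difference. The 7028 lower genes reach down to 0 at week 2 from all levels at week 0, with Prm2 and Prm1 farthest to the right, and Saa3 and Mmp3 lie highest above the line among the 5203 higher genes.

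Most of the deepest falls were in genes expressed in haploid germ cells, which include the 4 highest transcripts of the fresh selection. Prm2, which encodes protamine 2 (chr16:10791380-10796134 in GRCm38), had an FPKM of 9287 and 9956 at week 0, more than any other gene there, and both libraries of week 2 listed it at 0. Its difference was -13.23 (SE 0.26), with an adjusted p of 1.0e-09. Protamine 1 (Prm1) had 5117 and 5588 at week 0 and transition protein 2 (Tnp2), which packs DNA before protamines do, had 3946 and 4035, and both were also listed at 0 at week 2. Tnp1, the other transition protein, went from 3564 and 4060.3 to 6.57 and 5.99, so a low level of it was still measured. At week 1 the mRNA of Prm2 was still at 119 and 110.4.

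The 30 genes of the spermatid list all fell, by 3.90 to 13.23 on the log2 scale, with a median of -8.05 against -0.25 for all genes. Their summed FPKM was 35751 and 37694 at week 0 against 73.6 and 76.5 at week 2, with week 1 at 285 and 270.3. Among them 10 were listed at 0 in both week 2 libraries. The other genes among the 12 with the largest falls include Oaz3, the testis antizyme (1607 and 1704 at week 0 and 0.0314 and 0.14 at week 2), the sperm mitochondrial capsule gene Smcp (1449.6 and 1572 at week 0 and 0.0978 and 0 at week 2), the sperm secretory protein gene Crisp2 (1065 and 967 at week 0 and 0.192 and 0.221 at week 2), the small heat shock gene Hspb9 (1116 and 1121 at week 0 and 0.143 and 0 at week 2) and Hrasls5 (935 and 910.4 at week 0 and 0.164 and 0 at week 2). Iqcf3 and Gm15517 belong to these 12 as well and were listed at 0 in both week 2 libraries, after 798 and 954 for Iqcf3 and 928 and 921 for Gm15517 at week 0. Gapdhs and the Leydig cell gene Insl3, given further on, complete the 12. Week 0 and week 2 did not come near to overlapping for any of these genes, which follows from their choice by the size of the fall.

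Genes of the sperm tail followed. Of 30 tested members of the axoneme list 29 fell and 1 rose, with a median of -6.26 and a summed FPKM of 8133 and 7436 at week 0 against 70.3 and 76.3 at week 2, with week 1 at 129 and 137. Meig1, needed for the manchette that shapes the spermatid, fell from 2365 and 2118 to 1.69 and 2.68, a difference of -9.48 (SE 0.25). The radial spoke gene Rsph1 was at 1169.5 and 1064 at week 0 and 1.88 and 1.31 at week 2, and Ropn1 of the fibrous sheath at 389.8 and 382 at week 0 and 0 and 0.199 at week 2. The member that rose was Rsph4a, a radial spoke head gene better known from motile cilia, at 0.28 and 0.275 at week 0 and 3.03 and 2.57 at week 2 (log2 difference 1.57, SE 0.12). In all, 602 genes had an FPKM of 1 or more in both week 0 libraries and 0 in both of week 2, and 343 of these had been at 10 or more, while 18 genes showed the reverse.

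Regulators of the meiotic and haploid program fell in the same way, with 13 of 14 lower and a median of -3.55. Spz1 and Hmgb4, a leucine zipper factor and an HMG box protein of spermatids, were listed at 0 in both week 2 libraries, after 676 and 662 for Spz1 and 279 and 261 for Hmgb4 at week 0. Zfp541, a zinc finger protein of spermatocytes, was at 129 and 122 at week 0 and 1.37 and 0.699 at week 2. Taf7l, the X-linked testis form of a TFIID subunit, went against the list and rose from 56.1 and 58.2 to 259 and 235 (log2 difference 2.09, SE 0.08). Ybx2, the germ cell Y-box protein that stores mRNA, was among the 6 highest genes of week 0 at 3605 and 3351 and fell to 26.6 and 24.8.

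Meiotic genes were divided. In the spermatocyte list 22 of 30 fell, 2 rose and 6 were not called, with a median of -1.45, and 19 of the falls were called under all 4 scalings. Each of the 30 still had a mean FPKM of 1 or more at week 2. Cyclin A1 (Ccna1), which spermatocytes need to leave prophase, fell from 205 and 203 to 1.18 and 2.17, and the spermatocyte chaperone Hspa2 from 733 and 673 to 9.47 and 10.2. Spo11, which makes the double-strand breaks of meiosis, was at 51.7 and 42.2 at week 0 and 2.05 and 2.9 at week 2 (log2 difference -3.79, SE 0.19). The 2 that rose were Tex11, an X-linked crossover gene, at 10.1 and 9.51 at week 0 and 39.4 and 37.1 at week 2, and Rad21l, a meiotic cohesin, at 3.38 and 2.44 at week 0 and 10.9 and 10.7 at week 2.

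In the piRNA pathway, which silences transposons in germ cells, the members split much as all genes did. Of 21 genes 7 rose, 11 fell and 3 were not called, against 34.7% higher and 46.9% lower among all genes. Piwil1, the Piwi protein of pachytene spermatocytes and round spermatids, fell from 239.9 and 239.9 to 6.06 and 5.33 (log2 difference -5.17, SE 0.11), and Tdrd6, of the chromatoid body, from 468 and 425 to 1.12 and 1.46. Pld6, the mitochondrial enzyme of piRNA processing, was at 79.97 and 66 at week 0 and 9.98 and 11.4 at week 2. Piwil4, the Piwi protein best known from fetal germ cells, rose from 1.78 and 1.36 to 7.27 and 6.35 (log2 difference 1.61, SE 0.18). Fkbp6, a co-chaperone of the pathway, rose from 93.7 and 95.9 to 222 and 233. The general germ cell helicase Ddx4 (Vasa) fell from 213 and 185 to 102 and 101 (log2 difference -0.96, SE 0.08), whereas the RNA-binding protein gene Dazl rose from 107 and 116 to 479.7 and 460.1 (log2 difference 2.06, SE 0.13).

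Genes of undifferentiated spermatogonia rose as a group. Of 35 tested members 29 rose, 1 fell and 5 were not called, against 34.7% higher among all genes, and the median was 2.03. Gfra1, the GDNF co-receptor (chr19:58235604-58455909), had 4.43 and 5.77 at week 0 and 51 and 50.4 at week 2, a difference of 3.09 (SE 0.11) with an adjusted p of 3.3e-08. Ret, its signalling partner, went from 8.45 and 9.68 to 95.5 and 97.2 (log2 difference 3.28, SE 0.09). For both genes the lowest week 2 library was several times the highest library of week 0.

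The largest rise of this list was that of Bcl6b, a transcriptional repressor induced by GDNF, from 2.2 and 2.64 to 115 and 121 (log2 difference 5.12, SE 0.13). Lhx1, a homeobox gene under GDNF control, rose from 1.39 and 0.87 to 47.4 and 57.4. Thy1, a surface glycoprotein used to enrich stem cells and carried by fibroblasts too, rose from 0.389 and 0.397 to 24.7 and 23.4, but its level at week 1 was higher still at 273 and 235. Nanos2, the RNA-binding protein that keeps spermatogonia undifferentiated, was low at week 0 (0.355 and 0.407) and reached 12.4 and 11.8 (log2 difference 3.25, SE 0.12). Zbtb16 (PLZF), a zinc finger protein of self-renewal, rose from 16.2 and 19 to 94.6 and 101. Cd9, whose protein was the handle of the selection, rose from 24.9 and 23.5 to 105 and 99 (log2 difference 2.03, SE 0.08).

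Not every marker took part on the deposited scale. Id4, an inhibitor of differentiation that marks stem cells in the testis, had 14.2 and 12.7 at week 0 and 11.1 and 11.4 at week 2, a difference of -0.24 (SE 0.12) that was not called (adjusted p = 0.089). Under the quantile, common sum and remaining-gene scalings its difference was 0.36, 0.28 and 0.36. Id4 was called higher under the first (adjusted p = 0.023) and the last (0.020) of these. Of the 35 genes of the list 34, 32 and 33 were higher under these scalings, which shift values upward, and 0, 1 and 1 lower. Tspan8, another surface marker of stem cells, was the member that fell, from 3.92 and 3.92 to 0.879 and 1.73, and this fall was not called under all 4 scalings. In these bulk samples, fewer cells of a type and less RNA per cell cannot be told apart. The same holds for a rise.

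**Figure D2:**
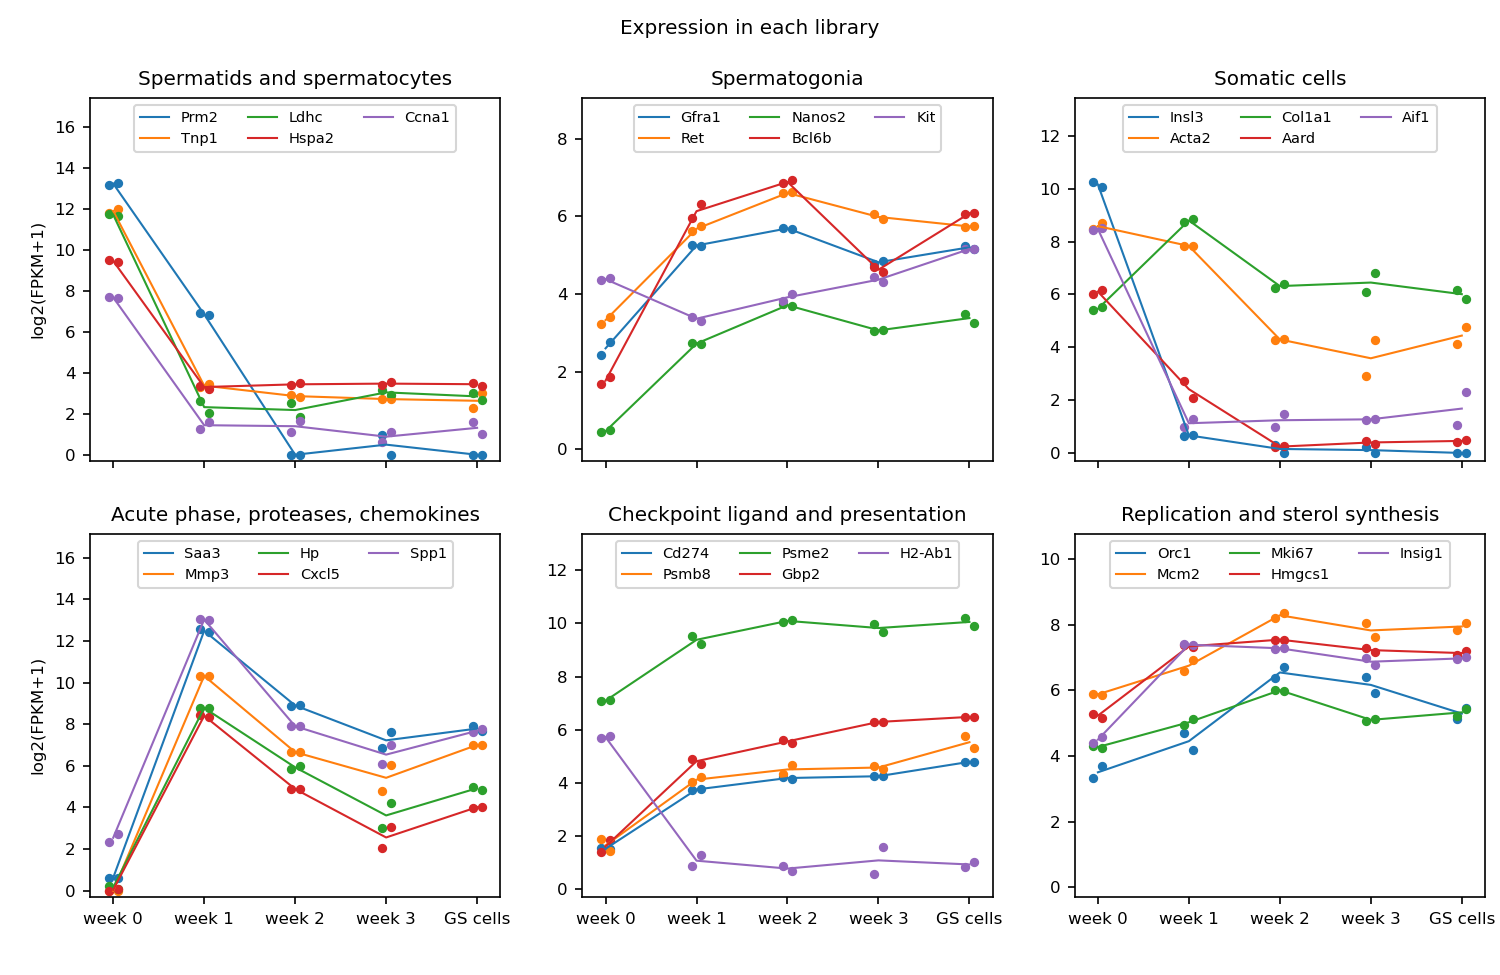
Log2(FPKM+1) of 30 genes in the 10 libraries, 1 point per library and a line through the means of the groups. Between week 0 and week 2 the spermatid and spermatocyte genes fall and the spermatogonial genes other than Kit rise, and the acute phase genes are lower at week 2 than at week 1 but remain above week 0.

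Differentiating spermatogonia gave a mixed list, with 9 of 16 rising and 6 falling and a median of 0.92. Sohlh2, a helix-loop-helix factor of early differentiation, rose from 14 and 12.7 to 109 and 108 (log2 difference 2.93, SE 0.09), and the RNA-binding gene Elavl2 from 10.7 and 12.7 to 73.6 and 70.1. Cyclin D2 (Ccnd2), which marks the step to type A1 spermatogonia and is also a GDNF target, had the largest rise of the list, at 10.9 and 69.6 at week 0 and 309 and 308 at week 2. Its week 0 libraries disagreed with each other by far more than those of the other genes, and the SE of its difference was accordingly large (log2 difference 3.42, SE 0.64, adjusted p = 0.0011). Dmrtb1, which controls the entry into meiosis, fell from 582 and 561 to 5.57 and 6.51, and Prss50 from 49.99 and 53.5 to 2.47 and 2.07. The receptor gene Kit had 19.4 and 20.3 at week 0 and 13.1 and 15.1 at week 2 and the retinoic acid target Stra8 46.1 and 58.3 at week 0 and 40.5 and 35.6 at week 2, and both were called lower (log2 difference -0.47 for Kit and -0.44 for Stra8), but not under all 4 scalings. The call of Stra8 was also lost without week 0 replicate 2 (adjusted p = 0.096) and without week 2 replicate 2 (0.086).

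Genes of pluripotent cells that germ cells share were mostly higher, with 12 of 20 tested rising and 5 falling (median 0.98). Pou5f1 (OCT4), a POU factor of germ and stem cells, rose from 6.31 and 4.55 to 58.4 and 55.4 (log2 difference 3.18, SE 0.13). Dppa3 (Stella) was at 0.153 and 0.323 at week 0 and 10.7 and 11.3 at week 2 and Dppa5a at 2.08 and 1.89 at week 0 and 23.2 and 23.7 at week 2. Nanog, Prdm14, Tdgf1, Fgf4 and L1td1 did not pass the filter and were not tested. Nr0b1, an orphan receptor also made by steroid-producing and Sertoli cells, fell from 8.36 and 7.83 to 0 in both libraries, and the Krüppel-like factor Klf2, also of endothelium, from 44.3 and 48.2 to 6.23 and 7.05.

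Several patterning genes stood among the 12 largest rises. Zic1, a zinc finger gene best known from the nervous system, rose from 1.45 and 0.406 to 178 and 164 (log2 difference 6.54, SE 0.22). Of the neighbouring homeobox genes on chromosome 11, Hoxb8 rose from 0.119 and 0.169 to 57.6 and 62.1 (log2 difference 5.73, SE 0.13), Hoxb7 from 0.355 and 0.435 to 46.2 and 43.4 and Hoxb9 from 0.407 and 0.726 to 49.8 and 50.8. All 3 were below an FPKM of 1 in both fresh libraries. Epha2, a receptor tyrosine kinase for ephrins, rose from 2.11 and 2.34 to 134 and 138 (log2 difference 5.41, SE 0.09).

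Targets of the 2 factors in the medium mostly rose. Of 33 GDNF and FGF target genes 27 rose, 2 fell and 4 were not called, with a median of 2.16. This list shares Bcl6b, Lhx1, Ccnd2 and other genes with the lists above. Nefm, a neurofilament gene, rose from 1.29 and 1.09 to 50.9 and 50.5 (log2 difference 4.56, SE 0.13), and the early growth response genes Egr2 and Egr3 rose from 3.71 and 8.4 to 74.1 and 77.4 for Egr2 and from 22.5 and 22.6 to 139 and 125 for Egr3. The members that fell were Fos, from 272 and 341 to 78.2 and 78.9, and cyclin D3 (Ccnd3), from 196 and 211 to 94.2 and 91.5.

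Among 14 receptor genes 5 rose and 9 fell, and 4 of the falls were called under all 4 scalings. Gfra2, the receptor for neurturin, fell from 21.5 and 24 to 1.81 and 1.31 (log2 difference -3.22, SE 0.17), Gfra4 for persephin from 32 and 31 to 8.53 and 6.09, and Klb, the co-receptor of endocrine FGFs, from 11 and 10.2 to 0.29 and 0.312. On the deposited scale Gfra1 and Ret therefore moved against most of their relatives, whereas after quantile normalization 6 of the 14 were higher and 4 lower. The median of this list was -0.74 on the deposited scale and 0.23 after quantile normalization, so its sign depends on scaling.

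Immediate early genes were divided much as all genes were on the deposited scale. Of 26 in this list 8 rose, Egr2 and Egr3 among them, and 12 fell, against 34.7% higher and 46.9% lower among all genes. The median was -0.27, against -0.25 for all genes. The split depended on scaling, with 14 higher and 8 lower and a median of 0.35 after quantile normalization. Jun fell from 110.4 and 135 to 8.92 and 9.13 (log2 difference -3.62, SE 0.12), and 2 matricellular genes induced by cell stretch and serum fell too, with Ctgf at 160.4 and 181 at week 0 and 10.3 and 10.5 at week 2 and Cyr61 at 53.6 and 54.8 at week 0 and 9.27 and 8.75 at week 2.

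Niche growth factors showed no common direction as deposited, with 7 of 16 tested rising and 5 falling (9 and 3 after quantile normalization), and Gdnf itself did not pass the filter. Inhba, the activin subunit, rose from 0.436 and 0.774 to 15.3 and 13.4 and epiregulin (Ereg) from 0.123 and 0.161 to 8.45 and 7.8. Both had been higher at week 1, with 249 and 261 for Inhba and 205 and 208 for Ereg. Fgf7 was listed at 0 in both week 0 libraries and had 2.79 and 2.04 at week 2. Wnt6 fell from 16.9 and 18.9 to 0 and 0.0398 and Egf from 19.5 and 18.2 to 0.939 and 0.80.

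Retinoic acid genes fell more often than they rose, 12 against 3 of 19, but 5 of the falls were called under all 4 scalings, and after quantile normalization 8 were higher and 5 lower. Cyp26b1, which degrades retinoic acid, fell from 108 and 119.6 to 0.465 and 0.848 (log2 difference -6.12, SE 0.19). The synthesizing enzymes Aldh1a1 and Aldh1a2 fell from 123 and 120.1 to 1.09 and 1.7 for Aldh1a1 and from 72.8 and 68.6 to 10.1 and 10.8 for Aldh1a2. Crabp2, a binding protein that delivers retinoic acid to the nucleus, rose from 0.926 and 0.346 to 11.1 and 14.3, and the receptor Rxrg from 0.338 and 0.554 to 4.25 and 5.22.

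Transcripts of somatic testis cells were measured in the CD9 selection, and most markers of Leydig, Sertoli and contractile cells fell. In the Leydig cell list, 14 of 15 fell and 1 rose (median -4.31), and the summed FPKM was 2132 and 1866 at week 0 against 69.6 and 69.7 at week 2, with week 1 at 257 and 252. Insl3, the peptide hormone of Leydig cells, was at 1219 and 1075 at week 0, the level of an abundant transcript, and at 0.235 and 0 at week 2 (log2 difference -10.01, SE 0.15, adjusted p = 4.0e-10). The steroid enzyme genes Cyp17a1 and Cyp11a1 fell from 314 and 239 to 0 and 0.0461 for Cyp17a1 and from 129.5 and 119 to 0.807 and 0.891 for Cyp11a1. Hsd11b1, a glucocorticoid enzyme with many sources, was the member that rose (0.167 and 0.343 at week 0 and 2.74 and 2.22 at week 2).

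Of 29 tested Sertoli cell genes 25 fell and 3 rose, with a median of -3.42. Amhr2, the receptor for anti-Müllerian hormone, fell from 218 and 208 to 0.787 and 3.8, the cystatin gene Cst12 from 125 and 138 to 0.187 and 0.216 and Aard from 64.6 and 71.7 to 0.169 and 0.194. Fshr, Cst9 and Ptgds were listed at 0 in both week 2 libraries. Sox9, which determines Sertoli cells, was low at both times, at 2.6 and 2.94 at week 0 and 1.69 and 1.53 at week 2, and its fall was not called under all 4 scalings. The list members that rose include transferrin (Trf), at 9.59 and 15 at week 0 and 117 and 126 at week 2, and Inhba, named above, and both have other sources.

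Contractile cell genes fell too. All but 1 of the 15 smooth muscle and myoid genes fell (median -3.24), and 11 of the falls were called under all 4 scalings. Acta2, smooth muscle actin, went from 353 and 418 to 18.4 and 18.9, passing through 228 and 227 at week 1. Myh11, smooth muscle myosin, was at 87.6 and 102 at week 0 and 0.227 and 0.198 at week 2, Actg2 at 172 and 178 at week 0 and 1.49 and 1.24 at week 2 and Mylk at 106 and 111 at week 0 and 4.81 and 4.33 at week 2. At week 2, 11 of the 15 still had a mean FPKM of 1 or more.

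Fibroblast and matrix genes were divided, 9 rising and 9 falling among 25, against 34.7% higher and 46.9% lower among all genes. Their summed FPKM was 1403 and 1646 at week 0 against 1259.8 and 1300.0 at week 2, with week 1 at 13370.4 and 13083. The FPKM sum at week 2 lay below both week 0 libraries, but as a share of the sum of all genes it lay above them, at 0.217% and 0.224% against 0.163% and 0.194%. The median of the list was -0.26 as deposited and 0.29 to 0.59 under the 3 rescalings, so neither direction holds on every scale. Col1a1 rose from 41.2 and 44.8 to 75.3 and 82.4 (log2 difference 0.86, SE 0.21), a call lost without week 0 replicate 1 (adjusted p = 0.054). The elastic matrix genes Fbln2 and Lox rose from 2.09 and 3.14 to 51.5 and 54.3 for Fbln2 and from 2.48 and 2.66 to 41 and 44.2 for Lox. S100a4 rose from 0.325 and 3.61, which differed between the replicates, to 73.4 and 60.5. Tcf21, a factor of testis mesenchyme, fell from 29 and 38.8 to 0 and 0.0698, and Col6a1 from 40.8 and 49.2 to 6.17 and 6.94. Vimentin (Vim), of mesenchymal and Sertoli cells, was at 165 and 220.2 at week 0 and 159 and 158 at week 2 and was not called (adjusted p = 0.36).

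Blood and vessel markers mostly fell. Of 17 tested macrophage genes 14 fell and 2 rose (median -2.34), and 11 of the falls were called under all 4 scalings. C1qb of complement went from 21.8 and 20.9 to 0.946 and 1.01 and Csf1r, the receptor of macrophage growth, from 11.7 and 14.9 to 0.211 and 0.263. Aif1 stood far above these at week 0, at 346 and 365, and fell to 0.983 and 1.81. Haploid germ cells are also known to express it. Lyz2, lysozyme, went the other way, with 35.2 and 44.8 at week 0 and 65.9 and 61.2 at week 2 (adjusted p = 0.042). This call was lost with the replicate block (adjusted p = 0.058), without a filter (0.058), with the pseudocounts 0.1 and 0.5 (0.080 and 0.057) and without any 1 library of week 0, 1 or 2 (0.060 to 0.25). Lyve1 also rose (1.12 and 0.527 at week 0 and 2.9 and 2.4 at week 2). Of 16 endothelial genes 10 fell and 3 rose, and 8 of the falls were called under all 4 scalings. Cldn5, of the endothelial tight junction, was at 15.4 and 15.6 at week 0 and 0 and 0.0612 at week 2, Sox17 went from 11.1 and 11.2 to 0 in both libraries and Vwf from 15.7 and 10.2 to 0.407 and 0.946. Flt1 and Plvap rose, from 2.24 and 1.57 to 17.7 and 16.6 for Flt1 and from 0.757 and 1.06 to 10.3 and 10.1 for Plvap.

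Only 4 of 13 lymphocyte genes were tested, and Cd3e, Cd3g, Cd4 and Cd8a did not pass the filter. Cd3d, of the T cell receptor complex, was high at week 0, with 49.7 and 41.5 at week 0 and 0.0456 and 0.21 at week 2. Lck and Cd2, with 3.12 and 2.0 at week 0 and 5.99 and 9.03 at week 2 for Lck and 1.22 and 1.21 at week 0 and 2.55 and 2.97 at week 2 for Cd2, rose. Erythroid genes were low at week 0 and fell. Hba-a1 went from 6.27 and 5.4 and Hbb-bs from 4.75 and 4.63 to 0 in both libraries, with the reservation that reads of such near-identical globin copies may have been split between them, and Alas2, of heme synthesis, from 7.78 and 8.22 to 0.383 and 0.0879.

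The largest rise of any gene was in the acute phase group. Saa3, serum amyloid A3, which many cell types make under inflammatory stimulation (chr7:46711998-46715700), was at 0.546 and 0.54 at week 0 and at 473 and 479 at week 2, a difference of 8.27 (SE 0.21) with an adjusted p of 3.9e-09. At week 1 it had reached 6029 and 5436. Of 19 tested genes of acute phase proteins, chemokines and matrix proteases 17 rose and 2 fell, with a median of 3.25, the highest of the 36 lists. The summed FPKM of the list was 267 and 240.1 at week 0 against 1378 and 1405 at week 2, with week 1 at 27589 and 25926.

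Mmp3, stromelysin, was listed at 0 in both week 0 libraries and at 101 and 99.2 at week 2. Mmp13, a collagenase, rose from 0.117 and 0.288 to 34.8 and 34.5, and haptoglobin (Hp), a plasma protein that binds hemoglobin, from 0.169 and 0.0691 to 56.3 and 63.6. Osteopontin (Spp1) rose from 4.09 and 5.69 to 239 and 237 and the neutrophil chemokine Cxcl5 from 0 and 0.0576 to 28.5 and 28.6. At week 1 the levels were 1286 and 1266 for Mmp3, 440.0 and 436 for Hp and 8589.9 and 8099 for Spp1, above week 2 in each case. Lcn2, lipocalin 2, and thrombomodulin (Thbd) ended below their start, with 204 and 167 at week 0 and 26.2 and 25.8 at week 2 for Lcn2 and 16.7 and 21 at week 0 and 2.64 and 2.72 at week 2 for Thbd, although both had been higher at week 1, with 1759.9 and 1690.1 for Lcn2 and 236 and 236 for Thbd. The fibroblast list peaked at week 1 too, and its part in these values was not tested.

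**Figure D3:**
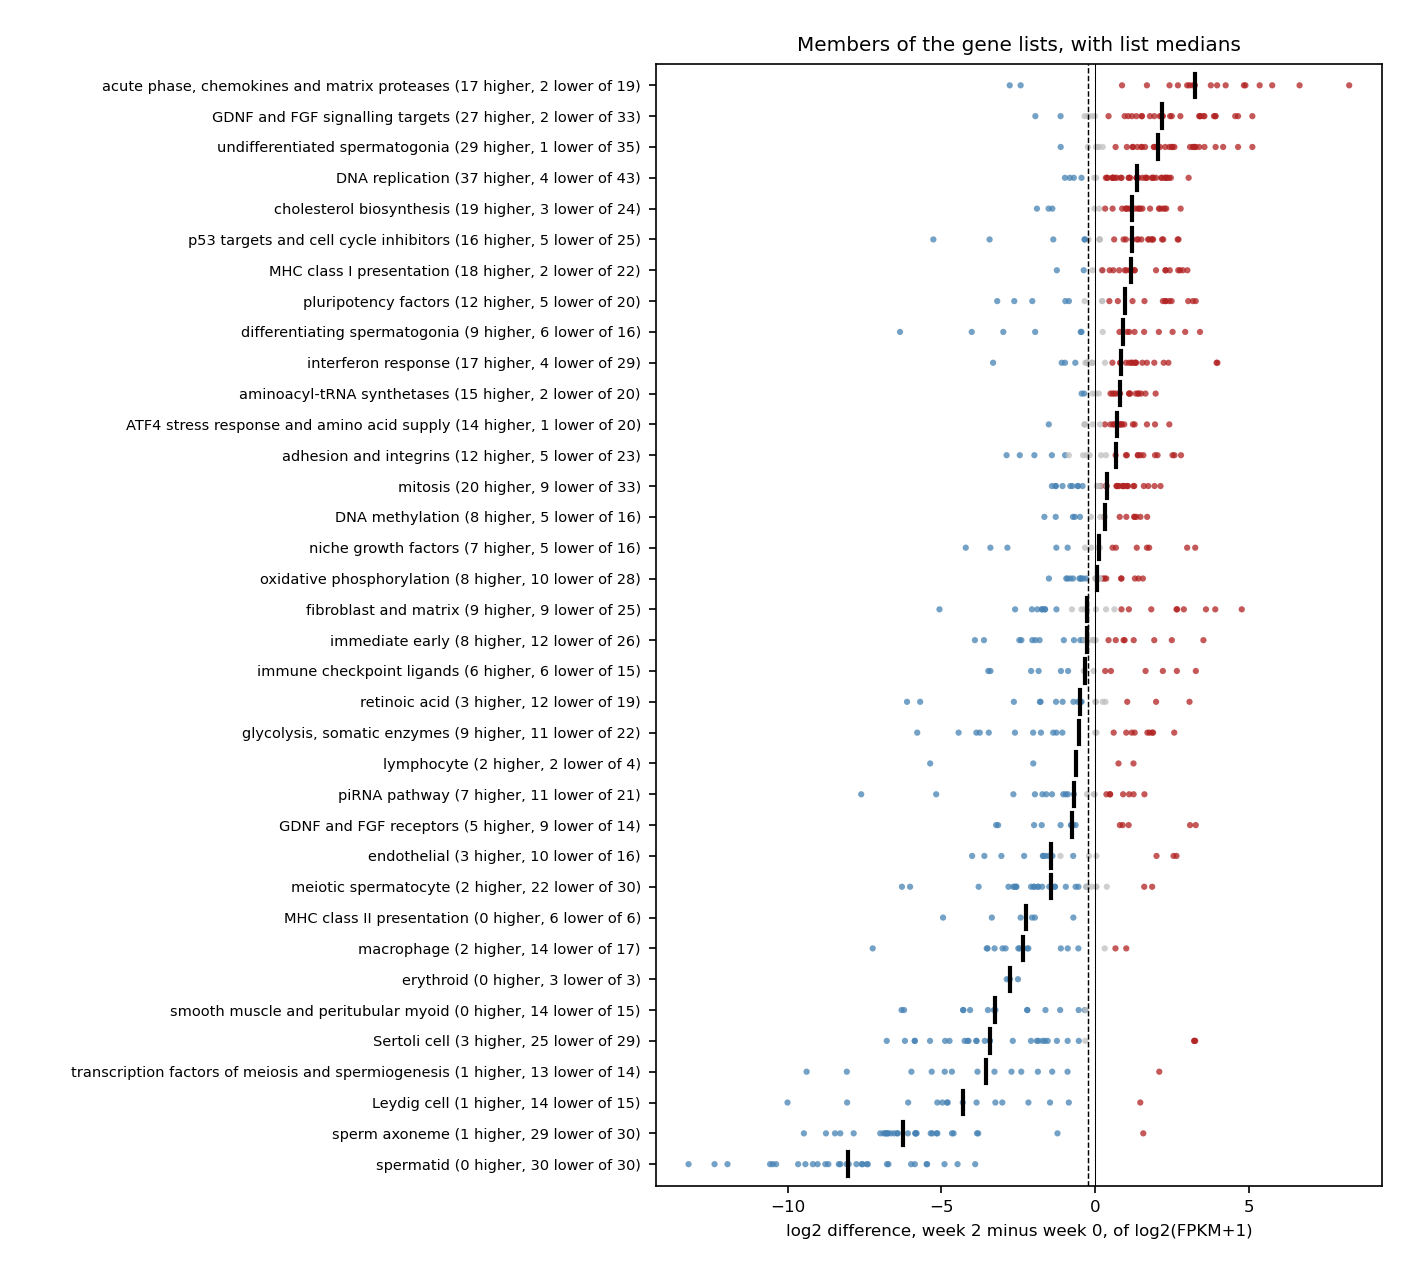
Log2 difference, week 2 minus week 0, of each tested member of the 36 gene lists (points, red for higher, blue for lower and grey for not called) with the list median (black bar). The solid line is at 0 and the broken line at the median of all genes, -0.25. Medians run from -8.05 for the spermatid list to 3.25 for the acute phase list.

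Genes that copy DNA rose. Of 43 replication genes 37 rose, 4 fell and 2 were not called, against 34.7% and 46.9% of all genes, with a median of 1.36. Orc1, the largest subunit of the origin recognition complex, went from 8.95 and 11.9 to 82 and 105 (log2 difference 3.05, SE 0.24). The helicase genes Mcm4 and Mcm2 rose from 13.2 and 19.2 to 89.97 and 95 for Mcm4 and from 58.2 and 57.7 to 295 and 331 for Mcm2. Rfc2, of the clamp loader, fell from 272 and 294 to 139.9 and 146 (log2 difference -0.98, SE 0.09), and was the only one of the 4 falls called under all 4 scalings. Chaf1a, of chromatin assembly, was at 106 and 95 at week 0 and 56.7 and 56.1 at week 2.

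Promoters of these genes were searched for an E2F element, the letters TTTCCCGC on either strand, since E2F factors are the classical activators of replication genes. The window was 250 bases before to 50 after the start in RefSeq (GRCm38.p6), and 34 of the 43 genes had an entry. Of their 40 promoters 6 (15%) held the element, against 1.07% of the 32851 promoters in the table. The 3 genes with a match before the start are all shown, with the element in capitals, which is here the reverse complement of the searched letters.
Cdc6, chr11:98907987-98908046, plus strand: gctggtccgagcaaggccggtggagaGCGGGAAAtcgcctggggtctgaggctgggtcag
Gins3, chr8:95633492-95633551, plus strand: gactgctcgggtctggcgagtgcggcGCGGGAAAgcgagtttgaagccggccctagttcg
Mcm7, chr5:138172015-138172074, minus strand: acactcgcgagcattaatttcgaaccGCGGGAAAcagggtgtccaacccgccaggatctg
Cdc6, the loader of the Mcm helicase, rose from 7.46 and 8.05 to 21.2 and 22 (log2 difference 1.37, SE 0.10). Gins3, of the active helicase, was at 3.13 and 3.14 at week 0 and 10.8 and 11.3 at week 2 (log2 difference 1.54, SE 0.11) and Mcm7, a helicase subunit, at 98.6 and 99.1 at week 0 and 143 and 154 at week 2 (log2 difference 0.58, SE 0.08). A match is a description of the letters and not a bound site.

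Among 33 mitotic genes 20 rose and 9 fell, with a median of 0.38, against 34.7% higher and 46.9% lower among all genes. Of the 9 falls 4 were called under all 4 scalings. Mad2l1, of the spindle checkpoint, rose from 24.8 and 20.2 to 99.3 and 103, cyclin A2 (Ccna2) from 22 and 20.7 to 83.8 and 85.4 (log2 difference 1.94, SE 0.08) and the proliferation marker Mki67 from 18.7 and 18 to 63.8 and 62.7. The kinase gene Nek2 and the kinesin gene Kif2c fell, with 127 and 123 at week 0 and 50.2 and 43.5 at week 2 for Nek2 and 139 and 137 at week 0 and 56.2 and 55.5 at week 2 for Kif2c. None of the 28 mitosis promoters held the E2F element, whereas 21 (75%) held the letters CCAAT on either strand, against 37.4% of all promoters. The promoter of Mki67 is shown with 1 of its matches in capitals.
Mki67, chr7:135716490-135716546, minus strand: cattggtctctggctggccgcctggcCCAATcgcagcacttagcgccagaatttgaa

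Of 25 inhibitors of the cell cycle and p53 targets 16 rose and 5 fell, and 3 of the falls were called under all 4 scalings. Cdkn1a (p21), the best known p53 target, rose from 8.85 and 8.72 to 63.5 and 63.2 (log2 difference 2.72, SE 0.12), with 267 and 259 at week 1. The cell death gene Pmaip1 (Noxa) and cyclin G1 (Ccng1) rose from 2.65 and 2.81 to 23.4 and 22.7 for Pmaip1 and from 5.05 and 5.3 to 27.4 and 28.1 for Ccng1. A pair of INK4 inhibitors that meiotic and haploid germ cells express fell, Cdkn2c from 77.6 and 76.1 to 1.21 and 0.857 and Cdkn2d from 89.7 and 98.8 to 6.78 and 8.98.

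The genes that maintain DNA methylation rose. Dnmt1, the maintenance methyltransferase, went from 41.5 and 41.1 to 134 and 138 (log2 difference 1.70, SE 0.07) and Uhrf1, its recruiting partner, from 100.3 and 101 to 244 and 272. The repair glycosylase gene Tdg rose from 11.3 and 12.3 to 39.2 and 30.4. Dnmt3l, the cofactor of germ line methylation, fell from 9.95 and 9.89 to 1.99 and 3.05, and the oxidase gene Tet2, at 2.78 and 4.06 at week 0 and 1.22 and 0.459 at week 2, fell without being called under all 4 scalings. In the whole list of 16 genes 8 rose and 5 fell, against 34.7% higher and 46.9% lower among all genes. Of the 5 falls 1 was called under all 4 scalings.

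Cholesterol synthesis was higher at week 2. Of 24 tested genes 19 rose, 3 fell and 2 were not called (median 1.22). Insig1, the sensor that SREBP factors induce, rose from 20.2 and 23.1 to 154 and 156 (log2 difference 2.79, SE 0.09). Hmgcs1, HMG-CoA synthase, rose from 38.3 and 34.9 to 186 and 186 (log2 difference 2.32, SE 0.08). Ebp and Tm7sf2, 2 enzymes of the later steps, fell from 14.1 and 16.9 to 3.04 and 3.86 for Ebp and from 34.7 and 37.7 to 10.9 and 13.3 for Tm7sf2.

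The sterol regulatory element TCACCCCAC, known from the promoters that SREBP factors bind, was searched in the same way. It was in 1 of the 20 promoters (5%) of the 17 list genes with an entry, against 0.551% of all promoters, and that promoter is the one of Hmgcs1. CCAAT was in 16 of the 20. The Hmgcs1 match is printed with the element in capitals.
Hmgcs1, chr13:119690188-119690248, plus strand: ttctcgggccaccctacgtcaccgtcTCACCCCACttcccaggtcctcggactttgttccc
For comparison, the cAMP response element TGACGTCA of spermatid promoters was in 1 of 31 promoters (3.23%) of the spermatid list, against 1.79% of all promoters. The match was in Izumo1, the sperm protein that binds the egg, which fell from 41.4 and 39.9 to 1.57 and 2.02 (log2 difference -3.90, SE 0.13).
Izumo1, chr7:45621689-45621748, plus strand: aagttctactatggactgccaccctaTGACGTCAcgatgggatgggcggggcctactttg

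Genes for glycolysis in somatic cells were split, 9 rising and 11 falling of 22, against 34.7% higher and 46.9% lower among all genes. The list median was -0.53 as deposited and 0.17 after quantile normalization. The falls were large. Hexokinase 1 (Hk1), which also has a sperm form, went from 1128 and 1059 to 19.1 and 18.5 (log2 difference -5.79, SE 0.07), the glucose transporter Slc2a3 from 870.5 and 799 to 31.9 and 43.9 and Ldha from 698 and 689 to 45.2 and 48.3. Slc2a1, the transporter of most dividing cells, rose from 8.79 and 8.39 to 39.1 and 30.4, and Pdk1, which keeps pyruvate out of mitochondria, from 16.1 and 18 to 106 and 107 (log2 difference 2.58, SE 0.09).

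Nuclear genes of oxidative phosphorylation had no common direction on the deposited scale, with 8 of 28 rising, 10 falling, 10 not called and a median of 0.06. After quantile normalization 21 were higher and 2 lower (median 0.69), at a common sum 19 and 4 (median 0.61) and at a common sum of the remaining genes 21 and 3 (median 0.70). Of the 10 falls 1, that of Ndufv2 of complex I, was called under all 4 scalings (202 and 182 at week 0 and 66.6 and 67.8 at week 2). Uqcrc1, of complex III, with 315 and 305 at week 0 and 173 and 159 at week 2, fell on the deposited scale. Ndufa4 rose from 81.1 and 78.2 to 221 and 206. Genes of the mitochondrial genome itself did rise, 10 of 11 tested with a median of 1.61, and mt-Cytb, cytochrome b, was the highest gene of week 2 at 5536 and 5230.0 against 1332 and 1293 at week 0. The mitochondrial share of the FPKM sum was 0.642% and 0.598% at week 0 and 2.79% and 2.63% at week 2.

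Amino acid supply and charging rose. Of 20 tested genes of the ATF4 response 14 rose and 1 fell (median 0.71). Shmt2, mitochondrial serine hydroxymethyltransferase, went from 34.3 and 27.2 to 160.4 and 175 (log2 difference 2.42, SE 0.12) and Phgdh, the first enzyme of serine synthesis, from 21.6 and 21.9 to 85.3 and 88.6. Nupr1, a stress-induced chromatin protein, rose from 9.34 and 5.96 to 24.4 and 28.4 with 577 and 455 at week 1. Ddit3 (CHOP), the death-promoting member, fell from 85.6 and 91 to 30.7 and 30.2 (log2 difference -1.51, SE 0.14). Aminoacyl-tRNA synthetases rose in 15 of 20 cases, among them Rars (26.7 and 26.2 at week 0 and 109 and 105 at week 2), Tars (24.4 and 26.2 at week 0 and 81.8 and 80.0 at week 2) and Iars (38.2 and 42.4 at week 0 and 105 and 128 at week 2). Vars and Aars, with 266 and 272 at week 0 and 205 and 215 at week 2 for Vars and 85.7 and 82.4 at week 0 and 60.9 and 62.8 at week 2 for Aars, were called lower, but not under all 4 scalings.

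Antigen presentation divided between its classes. In the MHC class I list 18 of 22 genes rose and 2 fell, with a median of 1.18. Psme2, a proteasome activator subunit, went from 133 and 137 to 1067 and 1118 (log2 difference 3.01, SE 0.15), the immunoproteasome gene Psmb8 from 2.65 and 1.68 to 19 and 24.7 and the peptide-trimming gene Erap1 from 19.4 and 14.5 to 110.3 and 130.2. Calr and H2-T23, with 482 and 495 at week 0 and 383 and 373 at week 2 for Calr and 3.24 and 4.57 at week 0 and 0.687 and 1.5 at week 2 for H2-T23, fell on the deposited scale but not under all 4 scalings, and reads of the H2 family may be split between similar members. All 6 class II genes fell (median -2.24), 5 of them under all 4 scalings. H2-Ab1 went from 50.1 and 53.2 to 0.831 and 0.589 and the invariant chain Cd74 from 28.2 and 27.8 to 1.97 and 1.68. H2-Eb1 was at 5.21 and 5.79 at week 0 and 0.197 and 0.227 at week 2. The class II genes moved with the macrophage list, whose summed FPKM was 531 and 585 at week 0 against 102 and 93.9 at week 2, with week 1 at 121 and 117, and its part was not tested.

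Genes that interferon induces rose in 17 of 29 tested cases and fell in 4, with 8 not called and a median of 0.83. The guanylate-binding protein genes Gbp2 and Gbp3 rose from 1.59 and 2.55 to 47.9 and 44.4 for Gbp2 and from 1.31 and 2.61 to 45.6 and 43.7 for Gbp3. Irf1, the transcription factor that links interferon to class I genes, rose from 20.1 and 23.3 to 123 and 112 (log2 difference 2.39, SE 0.12). Dhx58, a regulator of RNA sensing, fell from 44.7 and 33.9 to 3.14 and 2.86. Mx1 had 1.9 and 3.21 at week 0 and 0.49 and 0.82 at week 2, a fall not called under all 4 scalings, and Ifit1, Ifit3 and Iigp1 did not pass the filter. The rise was therefore not shared by the whole interferon list.

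Cd274 encodes PD-L1, the ligand with which cells restrain T cells through PD-1, and is the gene the series is named for. It lies at chr19:29367455-29388095 on the plus strand. Its FPKM was 1.89 and 1.83 at week 0 and 17.8 and 16.5 at week 2, a difference of 2.66 (SE 0.10) with an adjusted p of 3.3e-08. Both week 2 libraries were above both week 0 libraries, and week 1 had 12.3 and 12.5, between the weeks compared. Week 3 had 18 and 17.9, and the GS line reached 26.6 and 26.6. Of the 15 tested ligands of immune checkpoints 6 rose, 6 fell and 3 were not called, against 34.7% higher and 46.9% lower among all genes. Of the 6 falls 4 were called under all 4 scalings. The list median turned from -0.33 to 0.67 after quantile normalization. Cd276 (B7-H3) rose from 2.37 and 2.91 to 31.3 and 37.5 (log2 difference 3.28, SE 0.13) and Fgl1, a ligand of LAG-3, from 0.548 and 0.344 to 5.35 and 5.98. Cd200 and Nectin3 fell from 110.2 and 118 to 5.79 and 14.8 for Cd200 and from 194 and 159.7 to 16.3 and 15.1 for Nectin3. Pdcd1lg2, which encodes PD-L2, and Cd80 did not pass the filter.

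Of 23 tested adhesion genes 12 rose and 5 fell (median 0.67). Epcam, an epithelial adhesion molecule of spermatogonia, rose from 19.6 and 21.9 to 127 and 132 (log2 difference 2.58, SE 0.08) and the laminin receptor chain Itga6 from 9.67 and 8.61 to 58.5 and 55.8. Cd44, the hyaluronan receptor, rose from 0.262 and 0.788 to 9.58 and 9.31 after 208 and 216 at week 1. N-cadherin (Cdh2), which joins germ and Sertoli cells, fell from 34.5 and 33.2 to 5.49 and 5.28, and the collagen receptor chain Itga1 from 16.7 and 15.5 to 1.14 and 1.53.

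Many housekeeping enzymes have a copy that is used in the testis, and 28 such pairs were followed. The testis gene fell in 23 pairs and rose in 5, and the general partner rose in 19, fell in 6 and was not called in 3. Among all genes tested 34.7% were higher and 46.9% lower. In 16 pairs the testis gene fell and the partner rose. The falls of these 16 testis genes were called under all 4 scalings. Among the other falls of the 28 pairs, those of the testis gene Rbmxl2 and of the partners Rbmx and Nxf1 were not. The rescalings shift values upward and removed no rise of any gene, so they are no check on the partners. The rise of the partner was not called under some other alternatives in 2 of the 16. That of Gtf2a1 was lost with the replicate block (adjusted p = 0.052), without a filter (0.051) and without any 1 library of week 0, 1 or 2 (0.052 to 0.25), and that of Tuba1b without any 1 library of week 0 or 2 (0.057 to 0.14). The testis gene held a smaller share of the FPKM of the pair at week 2 in 24 pairs. For Gapdhs and Gapdh this share was 96.4% and 95.5% at week 0 and 0.0742% and 0% at week 2, with Gapdhs at 1386 and 1458 at week 0 and 0.136 and 0 at week 2 and Gapdh at 52 and 68.6 at week 0 and 183 and 211 at week 2. Gapdh has many near-identical pseudogenes, and its level is uncertain for that reason.

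Other pairs in which the testis gene went from the larger to a small share were Cox6b2 with Cox6b1 (81.3% and 76.1% at week 0 and 1.8% and 1.95% at week 2), Fam50b with Fam50a (95.2% and 94.5% at week 0 and 0.771% and 0.563% at week 2), the centrins Cetn1 and Cetn2 (96.9% and 97.1% at week 0 and 0.773% and 0.609% at week 2) and the calcineurin subunits Ppp3r2 and Ppp3r1 (92.1% and 92.3% at week 0 and 0.483% and 0.649% at week 2). Pgk2 fell from 412 and 392 to 0.136 and 0. Its X-linked partner Pgk1 was not called on the deposited scale, at 9.99 and 11.5 at week 0 and 11.7 and 9.9 at week 2. Under each of the 3 rescalings, which shift values upward, Pgk1 was called higher (log2 difference 0.51 to 0.69). The same held for Cstf2, another partner not called as deposited (0.61 to 0.70). Ldhc fell from 3471 and 3245 to 4.72 and 2.6, and Ldha fell as well. The chaperones Hspa1l and Hspa8 were at 201 and 205 at week 0 and 1.19 and 1.6 at week 2 for Hspa1l and 271 and 318 at week 0 and 979 and 932 at week 2 for Hspa8.

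Other testis copies were still expressed at week 2. Rpl10l, an autosomal copy of the X-linked Rpl10, fell from 249.5 and 237 to 106 and 99.4 and gave 65.3% and 60.9% at week 0 and 29% and 28.2% at week 2 of its pair, while Rpl10 rose from 133 and 152 to 259 and 253. Rbmxl2 and Rpl39l remained the larger member of their pairs in all 4 libraries, with 90.8% and 90.4% at week 0 and 87.9% and 88.8% at week 2 for Rbmxl2 and 93% and 89.4% at week 0 and 61.9% and 64.8% at week 2 for Rpl39l. So did the alpha tubulin gene Tuba3a and Tbpl1, a relative of the TATA-binding protein, which fell, and Taf7l and Slc25a31, which rose. Reads of copies with similar sequence may have been split between the members of a pair. The shares of all pairs are uncertain to that extent, which was not tested. The 5 testis genes that rose were Taf7l, named above, the ADP/ATP carrier Slc25a31 (49.2 and 46.1 at week 0 and 113 and 113 at week 2), the export factor Nxf2 (23.6 and 24 at week 0 and 111 and 104 at week 2), the polyadenylation factor Cstf2t (20.2 and 20.1 at week 0 and 29.9 and 31.5 at week 2) and Utp14b of ribosome assembly (11.5 and 10.3 at week 0 and 14.6 and 15.4 at week 2), whose call was lost without week 0 replicate 2 (adjusted p = 0.061) and without week 2 replicate 2 (0.063). The share of Nxf2 in its pair with Nxf1 was 9.79% and 8.52% at week 0 and 39.7% and 42.2% at week 2.

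**Figure D4:**
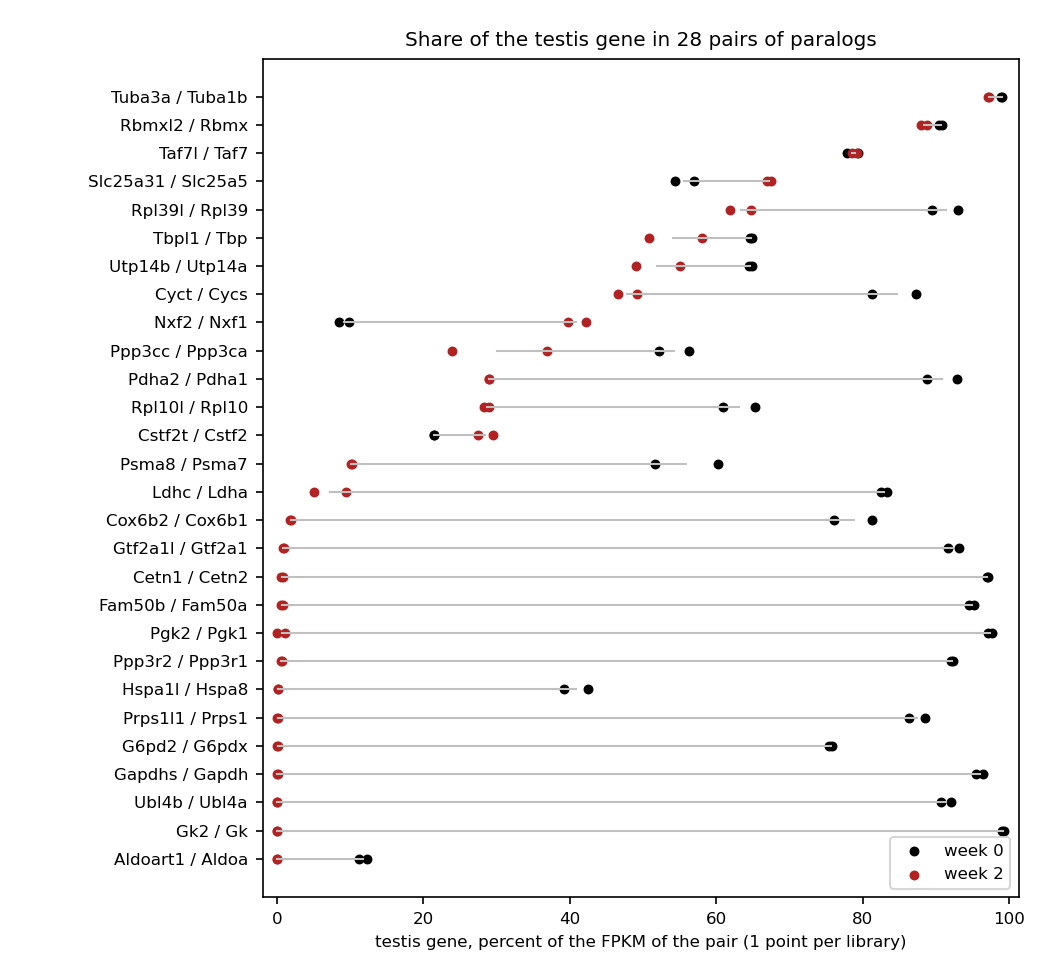
Share of the testis gene in the summed FPKM of each of 28 pairs, in percent, with 1 point for each library of week 0 (black) and of week 2 (red) and a line between the group values. The share at week 2 is lower in 24 pairs, and Nxf2, Slc25a31, Cstf2t and Taf7l are the pairs without a fall.

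Of the 14 partners that lie on the X chromosome 10 rose. The X chromosome as a whole also stood apart. Of 618 tested X-linked genes 301 (48.7%) were higher and 228 (36.9%) lower, and their median difference was 0.36, against -0.25 for all genes. On the autosomes the medians ran from -0.56 on chromosome 14 to -0.06 on chromosome 18. After quantile normalization the X chromosome had 1.10 and all genes 0.41, so the gap between the X chromosome and all genes did not depend on that choice. X-linked genes are known to be silenced in spermatocytes, and the fall of spermatocyte and spermatid genes described above was measured in the same libraries. Its part in the X chromosome value was not tested. The X chromosome held 1.06% and 1.11% of the FPKM sum at week 0 and 2.19% in both libraries of week 2.

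**Figure D5:**
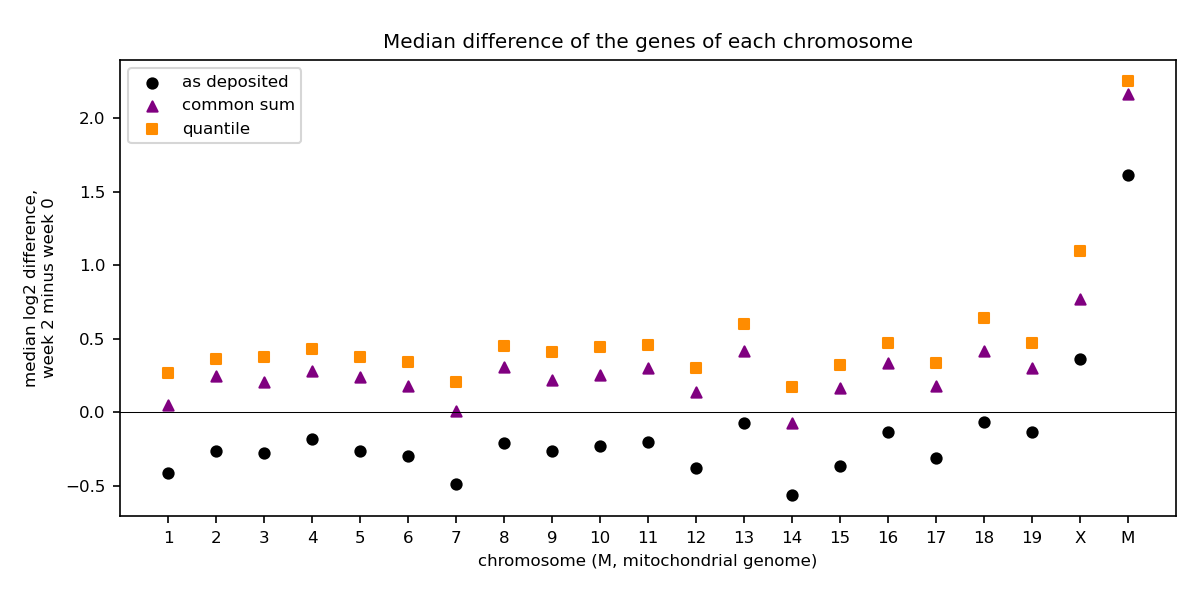
Median log2 difference, week 2 minus week 0, of the tested genes of each chromosome, with the values as deposited (circles), at a common FPKM sum (triangles) and after quantile normalization (squares). The X chromosome and the mitochondrial genome (M) lie above every autosome under all 3 scalings shown, at 0.36 and 1.61 with the values as deposited.

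Some abundant genes differed little. Among genes with a difference under 0.1 in size, the highest were the chaperone Hsp90aa1 (2658 and 2663 at week 0 and 2894 and 2712 at week 2), the elongation factor Eef2 (1057 and 1071 at week 0 and 980.3 and 1046 at week 2), the ATP synthase gene Atp5b (1014 and 1019 at week 0 and 984 and 1097 at week 2), Rpl36 (785 and 785 at week 0 and 797 and 800.2 at week 2), the ubiquitin ligase gene Trip12 (729 and 679.9 at week 0 and 699.7 and 667 at week 2) and the RNA-binding gene Ewsr1 (482 and 485 at week 0 and 487 and 439 at week 2). At either common sum all 6 were called higher, by 0.49 to 0.72. After quantile normalization Atp5b, Rpl36, Trip12 and Ewsr1 were called higher, and Hsp90aa1 and Eef2 were not called. Genes usually taken as constant did change. Actb, cytoplasmic actin, rose from 933 and 912 to 2553 and 2614 (log2 difference 1.49, SE 0.13), Eef1a1 from 2619 and 2599 to 4229 and 4196 and Rpl13a from 1601 and 1943 to 3232 and 3568. Together with mt-Cytb and mt-Co1 (2127 and 1951 at week 0 and 4152 and 3969 at week 2) they were among the 6 genes with the highest FPKM at week 2, where the first places of week 0 had been held by Prm2, Prm1, Tnp2, Tnp1, Ybx2 and Ldhc.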

How the data were processed

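Poly(A) RNA of 10 libraries, 2 in each of 5 groups, had been sequenced, and 4 libraries enter the comparison. The deposited table holds FPKM per gene. Per the submitters' processing notes, Cuffdiff, Cufflinks 2.2.1, HISAT2 2.1.0 and Bowtie2 2.3.4.1 were used with the mm10 build, besides cutadapt 1.16 and bcl2fastq 2.17.1.14. Their settings, the annotation and any normalization between libraries were not given in the sources used here. No counts were used, so no count model was fitted.

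From the deposited FPKM, log2(FPKM+1) was computed, with a pseudocount of 1, for genes with FPKM 1 or more in at least 2 of the 4 libraries. limma 3.58.1 in R 4.3.3 was fitted to all 10 libraries with a mean per group, 5 residual degrees of freedom and an intensity trend, and the contrast week 2 minus week 0 was adjusted by Benjamini-Hochberg over all 14974 genes. On simulated data with 200 genes changed by 1 on the log2 scale the fit recovered 150 and called 6 of the unchanged genes. The simulated libraries were independent and on the same scale, with 200 of 14974 genes changed, whereas 81.7% of the measured genes were called. These figures therefore check that the fit runs properly and do not measure the error of the calls given here. Depth was estimated from the spacing of low FPKM values, of which 95.7% to 99.2% came out as whole reads within 0.15 of a read. Intervals from reads are not given. Gene positions are from GENCODE M21 (GRCm38), which held 21951 of the 21969 identifiers, and promoter sequences are from RefSeq (GRCm38.p6). For 19 symbols on more than 1 row the lower identifier was used.

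The members and the 36 gene lists (823 entries) were chosen with earlier results of these data known. A list is described by its counts and its median, with no test of the list. The genes named are the 12 largest rises and falls, up to 3 called members of each list in its main direction and 2 in the other, the 6 highest genes of each week, the 6 highest among those with a difference under 0.1, the paralog pairs and a fixed set of markers. Genes outside this rule (Gdnf and others below the filter, genes at 0, and the promoters shown) were chosen after their values were seen. Some genes that this rule names are not reported here. Alternatives were other pseudocounts and filters, 3 rescalings, only the 4 libraries, a replicate block, other empirical Bayes settings, leaving out each library in turn, and a shorter promoter window.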

Additional observations from a re-analysis of the deposited data

How the results depend on the processing

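The counts of higher and lower genes stayed within 1.5 times of 5203 and 7028 under the alternatives run. They ranged from 4778 to 5261 higher and from 6614 to 7072 lower when 1 library was left out, and from 2704 to 2869 and 5174 to 5256 with at least 2-fold. In such a fit the lone library of a group is assumed to vary like the other groups. The count of genes higher by at least 2-fold moved from 2802 to 5361 after quantile normalization, 4624 at a common sum and 4915 at a common sum of the remaining genes. Without a filter 5461 of 19035 genes were higher and 8157 lower, and with an FPKM minimum of 5 these were 4513 and 5663 of 12125. With the replicate block, the replicate number of the titles as a term, 5203 genes were higher and 7019 lower. The deviations of same-numbered libraries correlated with r = 0.0114 over genes. With 2 libraries a group both replicate numbers must give the same value. It cannot tell whether same-numbered libraries share a mouse, a culture or a batch. Promoters before the start only held the cAMP response element in 1.55%, the E2F element in 0.895% and the CCAAT box in 33.8% of all entries, and the E2F element in 7.5% of those of the replication list.

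Most results that changed sign did so under the rescalings, which raise all genes. Genes are given where the difference was called on at least 1 of the 2 scales. After quantile normalization the medians that turned upward were 0.59 for fibroblast and matrix, 0.19 for lymphocyte, 0.23 for GDNF and FGF receptors, 0.35 for retinoic acid, 0.17 for glycolysis, 0.67 for immune checkpoint ligands and 0.35 for immediate early, and the genes were 0.12 for Aars, 0.23 for Calr, 0.54 for Ewsr1, 0.36 for Id4, 0.042 for Kit, 0.11 for Nxf1, 0.36 for Rbmx, 0.52 for Sox9, 0.0044 for Stra8, 0.42 for Trip12 and 0.42 for Vars. At a common sum of all genes the medians that turned upward were 0.29 for fibroblast and matrix, 0.0022 for glycolysis, 0.057 for immune checkpoint ligands and 0.24 for immediate early, and the genes were 0.11 for Aars, 0.19 for Calr, 0.49 for Eef2, 0.49 for Ewsr1, 0.060 for Kit, 0.070 for Rbmx, 0.11 for Stra8, 0.51 for Trip12 and 0.20 for Vars. At a common sum of the remaining genes the medians that turned upward were 0.38 for fibroblast and matrix, 0.053 for retinoic acid, 0.085 for glycolysis, 0.12 for immune checkpoint ligands and 0.30 for immediate early, and the genes were 0.20 for Aars, 0.28 for Calr, 0.57 for Eef2, 0.58 for Ewsr1, 0.36 for Id4, 0.14 for Kit, 0.040 for Nxf1, 0.15 for Rbmx, 0.19 for Stra8, 0.60 for Trip12 and 0.29 for Vars. Id4 also turned at the common sum of all genes (0.28), as did Eef2 and Gk after quantile normalization and Vim under all 3 rescalings, with no call on either scale. The niche growth factor median was -0.61 with the FPKM minimum of 5 and ran from -0.037 to 0.40 when 1 library was left out, with the lowest value without week 2 replicate 2, and the glycolysis median was 0.0029 with that minimum. The cause of these changes beyond the shift of all genes was not tested. A fall of small size is limited by the unknown normalization between libraries, and a low FPKM by depth.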

Other observations

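Genes of chromosome 16 stood apart in the GS cell line but not at week 2. Over its 466 tested genes the median difference of GS cells from week 2, on the log2(FPKM+1) scale, was 0.42, with 0.40 and 0.41 for the 2 GS libraries taken singly. The medians of chromosomes 1 to 15 and 17 to 19 and of the X chromosome ran from -0.061 (chromosome 19) to 0.039 (chromosome 18). The same difference for week 3 was 0.0012 on chromosome 16. This chromosome was singled out after its values were seen, and no test was made.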
